A study of Homo sapiens with 12 samples.

Results

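The 5 genes EIF2B1 to EIF2B5, which encode the subunits of eIF2B, and the 4 genes EIF2AK1 to EIF2AK4, which encode the kinases of eIF2-alpha, were followed by their gene symbols in H1299 cells with lowered EIF3G. All 9 were among the 16172 genes of the deposited table, and all 9 passed the filter that left 10605 genes for testing. H1299 is an established human line from a non-small-cell lung cancer. The libraries formed 4 groups of 3: polysomal RNA of siEIF3G cells, input RNA of siEIF3G cells, polysomal RNA of siCtrl cells and input RNA of siCtrl cells. The siEIF3G cells had received a mix of 2 siRNAs against EIF3G, a subunit of the initiation factor eIF3, and the siCtrl cells a control siRNA, and both were lysed after 72 h. Input was 10% of the lysate, and polysomal RNA was the polysome fraction of a sucrose gradient from 10% to 50%. The labels name no clone or separate culture for a replicate, so every p-value measures the spread between these libraries, which may be technical.

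eIF2 brings the initiator methionyl-tRNA to the small ribosomal subunit in its GTP-bound form and leaves bound to GDP. eIF2B exchanges that GDP for GTP, and it is held back when eIF2-alpha is phosphorylated. Each of the kinases senses a different stress, and their shared output, the integrated stress response, lowers general initiation while ATF4 mRNA is translated more.

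The siRNA sequences are shown because they define the knockdown. They are given 5′ to 3′ as the labels list them, in DNA letters with no part marked.
siEIF3G-4: gaacaaactcaagggccagaa
siEIF3G-5: gaggtcatcaacggaaacata
siCtrl: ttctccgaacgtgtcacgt

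EIF3G itself was at 143, 132 and 69.2 TPM (length-corrected shares of a fixed library total) in siEIF3G polysomal libraries 1 to 3, against 1680, 1916 and 1803 TPM in siCtrl polysomal libraries 1 to 3. In input RNA it was at 60.7, 84.7 and 47.3 TPM in siEIF3G libraries, against 1158, 1092 and 878 TPM in siCtrl libraries. The log2 difference was -4.02 in polysomal RNA (limma, Benjamini-Hochberg adjusted p = 3.76e-05) and -4.03 in input RNA (limma, adjusted p = 3.71e-05). The epithelial keratin genes KRT8 and KRT18 and the intermediate filament gene VIM were present throughout, KRT8 at 108 to 429 TPM. Of 13 markers of leukocytes, endothelium, fibroblasts and alveolar or club cells, 7 were in the table, and none of these exceeded 0.24 TPM in any library.

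The libraries differed in ways the groups did not explain. The 3 libraries siCtrl input 1, siEIF3G input 2 and siEIF3G polysomal 3 resembled the other fraction of the same siRNA more than their own group. For siCtrl input 1 the mean correlation of log2(TPM + 1) over genes was 0.922 with its own group and 0.957 with siCtrl polysomal libraries. For siEIF3G input 2 the same values were 0.929 and 0.958, and for siEIF3G polysomal 3 they were 0.949 and 0.953. MTRNR2L2 was at 5.41 to 13.1 TPM in the polysomal libraries and at 1258 to 2735 TPM in the input libraries, siCtrl input 1 and siEIF3G input 2 included. TPM are shares of a library, so fewer cells or less RNA per cell cannot be told apart, and a change common to all mRNAs leaves no trace.

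**Figure D1:**
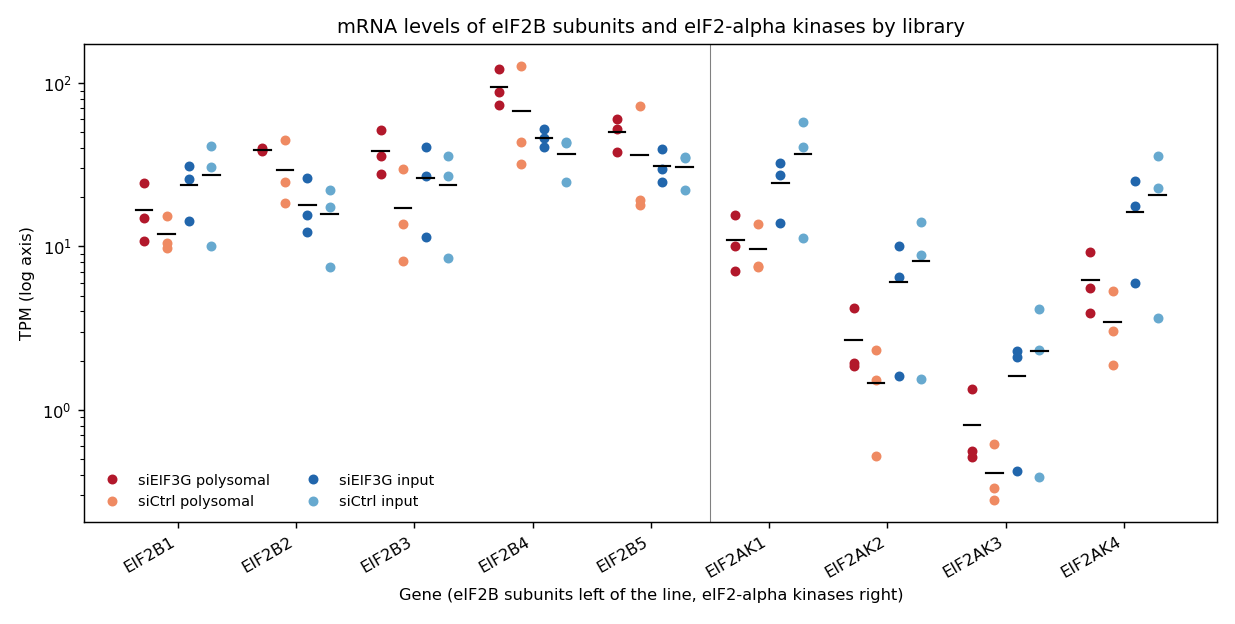
TPM of each member in each library, with a bar for the mean of the group of 3 and siEIF3G groups left of siCtrl groups. EIF2B4 was the highest member in 11 of 12 libraries, and EIF2AK3 was the lowest in all 12.

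Over the 12 libraries EIF2B4 had the highest mean, 61.4 TPM, followed by EIF2B5 at 37.1, EIF2B3 at 26.4, EIF2B2 at 25.5, EIF2AK1 at 20.4, EIF2B1 at 19.9, EIF2AK4 at 11.7, EIF2AK2 at 4.58 and EIF2AK3 at 1.28 TPM. EIF2B4 was the highest in 11 libraries and stood behind EIF2AK1 in siCtrl input 3. EIF2AK2 was in place 8 and EIF2AK3 in place 9 of 9 in all 12 libraries. The middle of the order was not fixed, and EIF2B2, EIF2B3, EIF2B1 and EIF2AK1 changed places between libraries. Among all 16172 genes EIF2B4 stood at percentile 88.7 by mean TPM and EIF2AK3 at percentile 36.9. EIF2B4 made up 35.2% of the summed eIF2B TPM on average over the 12 libraries, with a range of 24.4% to 45.6%. EIF2AK1 made up 57.6% of the summed kinase TPM, with a range of 42.0% to 74.0%.

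The promoters of the most and the least abundant member are shown because these genes also lay at opposite ends in how they varied between libraries. Sequences are from RefSeq on GRCh38.p14, 5′ to 3′ on the gene's strand, and capitals mark matches of CCAAT or GGGCGG on either strand. The promoter of EIF2B4 lies on the minus strand at chr2:27370339-27370588 and that of EIF2AK3 on the minus strand at chr2:88627465-88627714.
EIF2B4: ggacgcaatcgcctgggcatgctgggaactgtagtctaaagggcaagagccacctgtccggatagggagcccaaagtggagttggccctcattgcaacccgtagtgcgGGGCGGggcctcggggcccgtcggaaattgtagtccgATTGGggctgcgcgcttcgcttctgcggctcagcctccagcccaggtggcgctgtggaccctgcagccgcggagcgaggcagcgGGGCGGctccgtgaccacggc
EIF2AK3: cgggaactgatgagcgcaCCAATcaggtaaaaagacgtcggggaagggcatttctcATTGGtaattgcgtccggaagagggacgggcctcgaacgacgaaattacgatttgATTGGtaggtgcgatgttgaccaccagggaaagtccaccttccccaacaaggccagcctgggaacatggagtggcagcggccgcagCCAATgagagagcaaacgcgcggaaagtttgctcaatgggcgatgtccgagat
The EIF2AK3 promoter held 4 matches of CCAAT and none of GGGCGG, and the EIF2B4 promoter held 1 of CCAAT and 2 of GGGCGG. The table had a promoter for 8 of the 9 members. CCAAT was found in 5 of these 8, against 32.0% of all 35116 promoters, and GGGCGG in 6 of 8, against 42.6%. A member counted if any of its start sites matched, whereas the shares count each promoter by itself, so the members are favoured. TATAAA was in none of the 8, against 10.7% of all promoters. The core of the interferon-stimulated response element (GAAA, any 2 letters, GAAA) was in none of these windows, against 3.02%. Only the 250 bases before each start site were searched, so a match across or past the end of a window was not counted. The EIF2AK2 window ended in ggggaaaac, which holds the first letters of that core, so its absence from this promoter cannot be stated. The other EIF2B4 start site in the table had no match. These matches are descriptions of the letters in each window.

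Knockdown of EIF3G was compared with siCtrl first in the whole lysate, which asks whether the mRNAs of eIF2B and the kinases changed in abundance. None of the 9 members passed the test in input RNA, and their siEIF3G and siCtrl values overlapped for all 9. Over all 10605 genes, 0.0189% passed and 3.68% had groups that did not overlap. The 5 eIF2B subunits had log2 differences between -0.05 and 0.35, and the 4 kinases between -0.37 and -0.08, beside a median of -0.05 over all genes. In polysomal RNA again none of the 9 passed, with 0.0189% of all genes passing, and none of the 9 had groups that did not overlap, against 29.2% of all genes. There the log2 difference was positive for all 9 members, between 0.16 and 1.25, beside a median of 0.33 over all genes, though size factors turned it negative for EIF2B1, EIF2B2 and EIF2AK1 and quantile normalization for EIF2AK1. Relative to that median the subunits had a median of 0.36 and the kinases one of 0.13. The count of members with an unadjusted p under 0.05 was 0 in both fractions, where all genes gave 144 in input and 709 in polysomal RNA.

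EIF2B5, the catalytic subunit of the nucleotide exchange, was at 37.8, 60.6 and 52.1 TPM in siEIF3G polysomal libraries 1 to 3, against 72.2, 19.2 and 17.96 TPM in siCtrl polysomal libraries 1 to 3. EIF2B5 in input RNA was at 24.8, 29.65 and 39.4 TPM in siEIF3G libraries, against 22.1, 34.7 and 35.3 TPM in siCtrl libraries. The highest and the lowest polysomal values were both from siCtrl cells, so the groups overlapped. Its log2 difference was 0.73 in polysomal RNA (95% interval -0.27 to 1.72; limma, adjusted p = 0.650) and 0.03 in input RNA (95% interval -0.96 to 1.02; limma, adjusted p = 1.00). EIF2B3, which forms the catalytic subcomplex with EIF2B5, was at 27.8, 35.6 and 51.8 TPM in siEIF3G polysomal libraries, against 29.7, 13.7 and 8.09 TPM in siCtrl polysomal libraries. EIF2B3 in input RNA was at 27.1, 11.45 and 40.4 TPM in siEIF3G libraries, against 8.47, 27.1 and 35.6 TPM in siCtrl libraries. One siCtrl polysomal library, the first, lay above the lowest siEIF3G polysomal library. EIF2B3 had the largest log2 difference of the 9 members in polysomal RNA, 1.25 (SE 0.59, 95% interval -0.02 to 2.53; limma, unadjusted p = 0.0532, adjusted p = 0.650), which stood at percentile 96.0 among tested genes. In input RNA its log2 difference was 0.19 (95% interval -1.08 to 1.47; limma, adjusted p = 1.00).

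The regulatory subcomplex, through which eIF2B binds phosphorylated eIF2-alpha, consists of EIF2B1, EIF2B2 and EIF2B4. EIF2B1 was at 14.95, 10.8 and 24.5 TPM in siEIF3G polysomal libraries 1 to 3, against 10.5, 15.4 and 9.76 TPM in siCtrl polysomal libraries 1 to 3. EIF2B1 in input RNA was at 25.8, 14.3 and 31.2 TPM in siEIF3G libraries, against 10.0, 30.5 and 41.4 TPM in siCtrl libraries. The widest spread within its groups was that of siCtrl input, where library 1 was low. EIF2B2 was at 39.0, 38.2 and 39.8 TPM in siEIF3G polysomal libraries, against 45.1, 24.8 and 18.6 TPM in siCtrl polysomal libraries. EIF2B2 in input RNA was at 15.5, 12.3 and 26.2 TPM in siEIF3G libraries, against 7.48, 17.4 and 22.2 TPM in siCtrl libraries. The siEIF3G polysomal values lay within 1.64 TPM of each other, and 1 siCtrl value lay above and 2 below them. EIF2B4 was at 87.9, 122 and 73.2 TPM in siEIF3G polysomal libraries, against 128, 43.8 and 31.8 TPM in siCtrl polysomal libraries. EIF2B4 in input RNA was at 40.4, 46.2 and 52.7 TPM in siEIF3G libraries, against 24.8, 43.0 and 43.4 TPM in siCtrl libraries. The siCtrl polysomal library 1 was the highest of all 12 for EIF2B4, EIF2B5 and EIF2B2. The polysomal log2 differences were 0.41 for EIF2B1, 0.49 for EIF2B2 and 0.70 for EIF2B4 (95% intervals -0.66 to 1.49, -0.45 to 1.42 and -0.24 to 1.64; limma, adjusted p from 0.650 to 0.700). Leaving out 1 library at a time gave 0.12 to 0.67 for EIF2B1, lowest without siEIF3G polysomal 3, 0.21 to 0.83 for EIF2B2 and 0.30 to 1.28 for EIF2B4, both lowest without siCtrl polysomal 3 and highest without siCtrl polysomal 1. The input log2 differences were -0.05 for EIF2B1, 0.24 for EIF2B2 and 0.35 for EIF2B4 (95% intervals -1.13 to 1.02, -0.70 to 1.18 and -0.59 to 1.29; limma, adjusted p = 1.00 each).

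EIF2AK1, the heme-regulated kinase HRI, which also relays mitochondrial stress, was at 10.1, 7.12 and 15.6 TPM in siEIF3G polysomal libraries 1 to 3, against 7.47, 13.7 and 7.59 TPM in siCtrl polysomal libraries 1 to 3. EIF2AK1 in input RNA was at 27.3, 13.95 and 32.3 TPM in siEIF3G libraries, against 11.3, 40.8 and 58.1 TPM in siCtrl libraries. EIF2AK4, the kinase GCN2, which senses amino acid shortage and stalled ribosomes, was at 5.59, 3.90 and 9.18 TPM in siEIF3G polysomal libraries, against 3.05, 5.36 and 1.87 TPM in siCtrl polysomal libraries. Both kinases were low in siCtrl input 1 and siEIF3G input 2 beside the other libraries of those groups. EIF2AK4 in input RNA was at 25.3, 5.95 and 17.65 TPM in siEIF3G libraries, against 3.66, 22.7 and 35.7 TPM in siCtrl libraries. EIF2AK2, the kinase PKR, which is activated by double-stranded RNA, was at 1.94, 1.85 and 4.19 TPM in siEIF3G polysomal libraries, against 1.53, 2.31 and 0.52 TPM in siCtrl polysomal libraries. EIF2AK2 in input RNA was at 10.1, 1.61 and 6.51 TPM in siEIF3G libraries, against 1.54, 8.84 and 14.03 TPM in siCtrl libraries. The same pair of input libraries was low for EIF2AK2. EIF2AK3, the kinase PERK of the endoplasmic reticulum membrane, was at 0.56, 0.51 and 1.34 TPM in siEIF3G polysomal libraries, against 0.33, 0.62 and 0.28 TPM in siCtrl polysomal libraries. EIF2AK3 in input RNA was at 2.30, 0.42 and 2.09 TPM in siEIF3G libraries, against 0.39, 2.32 and 4.15 TPM in siCtrl libraries. At these levels the pseudocount of 1 TPM compresses its fold changes most of the 9.

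The polysomal log2 differences of the kinases were 0.16 for EIF2AK1, 0.59 for EIF2AK2, 0.33 for EIF2AK3 and 0.72 for EIF2AK4, with standard errors from 0.46 to 0.71 (limma, adjusted p from 0.677 to 0.868). In input RNA they were -0.37, -0.26, -0.24 and -0.08 in the same order (limma, adjusted p = 1.00 each). The 95% intervals reached from -1.55 to 0.82 for EIF2AK1 and from -1.61 to 1.45 for EIF2AK4, and both intervals include 0. The difference between the polysomal and the input effect, which asks whether polysome association changed apart from abundance, was positive for all 9 members, from 0.25 for EIF2B2 to 1.06 for EIF2B3. Its median over all genes was 0.38, 0% of genes passed and 19 had an unadjusted p under 0.05, and the members had adjusted p from 0.908 to 0.921 (limma). Scaling the libraries by median-of-ratios size factors turned the sign of this difference for EIF2B1, EIF2B2 and EIF2B4, and quantile normalization turned it for EIF2B2. No member passed in any of these 3 comparisons without the 3 libraries named above, with 0.0471% of all genes passing in input and 0.0377% in polysomal RNA.

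**Figure D2:**
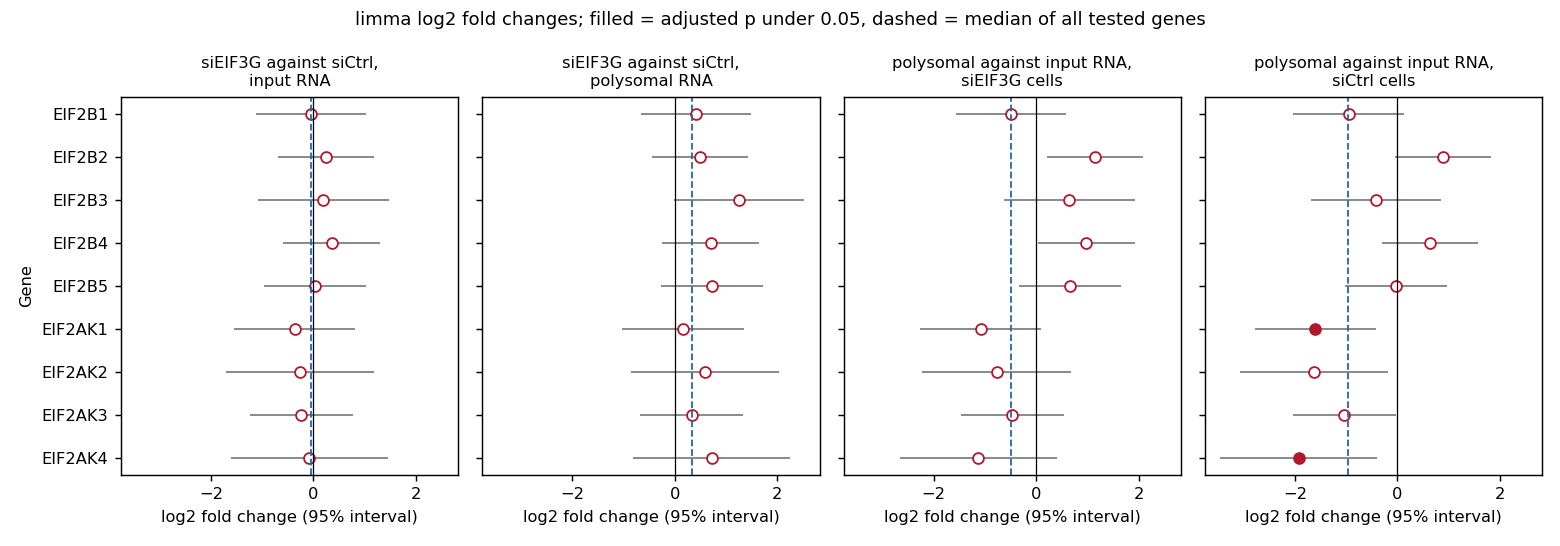
log2 differences with 95% intervals for the 9 members in each comparison, from limma on log2(TPM + 1), with the median of all tested genes marked. In both comparisons of polysomal with input RNA, EIF2B2 and EIF2B4 lie above that median and EIF2AK1 and EIF2AK4 below it, while EIF2B1 lies at it.

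Polysomal RNA was then compared with input RNA under each siRNA, which asks how the mRNAs are divided between these RNA pools. In siCtrl cells 2 of 9 members passed, EIF2AK1 and EIF2AK4, both lower in polysomal RNA, beside 36.9% of all genes passing and 28.9% passing as lower. EIF2AK1 averaged 9.60 ± 3.58 TPM in siCtrl polysomal libraries and 36.7 ± 23.7 TPM in siCtrl input libraries (SD, n = 3 each), a log2 difference of -1.61 (SE 0.55; limma, adjusted p = 0.0437). EIF2AK4 averaged 3.43 ± 1.78 TPM in siCtrl polysomal libraries and 20.7 ± 16.1 TPM in siCtrl input libraries (SD, n = 3 each), a log2 difference of -1.93 (SE 0.71; limma, adjusted p = 0.0492). Both calls stood close to the threshold, and their groups overlapped because siCtrl input 1 was low. The groups of all 9 members overlapped in siCtrl cells, while those of 45.8% of all genes did not. For EIF2AK1 the adjusted p over the alternatives ran from 2.76e-05 to 0.188, and for EIF2AK4 from 2.00e-05 to 0.206 (limma). Leaving out any library but siCtrl input 1, siEIF3G input 2 or siEIF3G polysomal 3 ended the call of EIF2AK1, and leaving out any but siCtrl input 1 or siEIF3G input 2 ended that of EIF2AK4. EIF2AK2 differed by -1.63 (limma, adjusted p = 0.0604) and EIF2AK3 by -1.04 (limma, adjusted p = 0.0755) on the log2 scale in siCtrl cells.

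In siEIF3G cells none of the 9 passed, beside 3.14% of all genes. The groups of 2 members, EIF2B2 and EIF2B4, did not overlap there, with polysomal RNA higher, beside 22.1% of all genes without overlap and 9.4% without overlap as higher. EIF2B2 averaged 39.0 ± 0.820 TPM in siEIF3G polysomal libraries and 17.99 ± 7.30 TPM in siEIF3G input libraries (SD, n = 3 each), a log2 difference of 1.14 (95% interval 0.21 to 2.08; limma, unadjusted p = 0.0205, adjusted p = 0.168). EIF2B4 averaged 94.3 ± 24.9 TPM in siEIF3G polysomal libraries and 46.4 ± 6.15 TPM in siEIF3G input libraries (SD, n = 3 each), a log2 difference of 0.98 (95% interval 0.04 to 1.92; limma, unadjusted p = 0.0422, adjusted p = 0.228). Among tested genes these differences stood at percentiles 98.2 and 96.6. EIF2B5 differed by 0.66, EIF2B3 by 0.65 and EIF2B1 by -0.49 (limma, adjusted p from 0.374 to 0.493), and the kinases by -0.46 for EIF2AK3 to -1.12 for EIF2AK4 (limma, adjusted p from 0.278 to 0.487). In siCtrl cells the corresponding log2 differences were 0.89 for EIF2B2, 0.64 for EIF2B4, -0.03 for EIF2B5, -0.42 for EIF2B3 and -0.96 for EIF2B1 (limma, adjusted p from 0.0939 to 0.958).

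Because the median gene differed by -0.49 in siEIF3G cells and by -0.96 in siCtrl cells on this scale, the members were also read relative to it. The 5 subunits lay above the median of all genes in both siRNA groups, with a median relative difference of 1.16 in siEIF3G cells and 0.93 in siCtrl cells. EIF2B1 exceeded it by less than 0.01 in siEIF3G cells and by 0.01 in siCtrl cells. Of the 4 kinases 1, EIF2AK3, lay above it in siEIF3G cells and none in siCtrl cells, with median relative differences of -0.43 and -0.65. Quantile normalization put EIF2B1 below the median gene and EIF2AK3 above it under both siRNAs, and size factors put EIF2AK3 below it under both. The other 4 subunits lay above the median gene and the other 3 kinases below it with either scaling. With median-of-ratios size factors the siCtrl calls were EIF2B2, 1.95 higher (limma, adjusted p = 0.00653), and EIF2B4, 1.71 higher (limma, adjusted p = 0.0168), in place of the kinases, beside 44% of all genes. With quantile normalization they were EIF2B2, 1.46 higher (limma, adjusted p = 0.00913), and EIF2AK1, at a log2 difference of -1.03 (limma, adjusted p = 0.0495), beside 27.3% of all genes, while EIF2AK4 did not pass (limma, adjusted p = 0.104). Without the 3 libraries that resembled the other fraction, 7 members passed in siEIF3G cells and 6 in siCtrl cells, beside 71.1% and 75.1% of all genes. Those passing included all 4 kinases as lower under both siRNAs, with EIF2AK4 at a log2 difference of -1.96 in siEIF3G cells and -2.81 in siCtrl cells. EIF2AK3 was among them, although it had passed the filter only through its input libraries. The subunit gene EIF2B1 also passed as lower under both. Most genes passing there were lower, since only 1734 of 7541 were higher in siEIF3G cells and 1407 of 7960 in siCtrl cells. The 3 libraries were left out for resembling the other fraction, so a larger difference between fractions follows from the choice.

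Ratios of 2 genes within a library are free of scaling between libraries. The kinases summed to 20.6 ± 8.72 TPM in siEIF3G polysomal, 48.5 ± 23.2 in siEIF3G input, 14.9 ± 6.27 in siCtrl polysomal and 67.8 ± 47.9 TPM in siCtrl input libraries (SD, n = 3 each). Per 100 TPM of summed eIF2B subunits there were 8.76, 5.02 and 12.5 TPM of kinases in siEIF3G polysomal libraries 1 to 3, against 48.7, 19.3 and 30.8 in siEIF3G input libraries. In siCtrl cells the same ratio was 4.34, 18.9 and 11.9 in polysomal libraries, against 23.1, 48.9 and 62.9 in input libraries. The kinase share was lower in every polysomal library than in any input library of the same siRNA, siCtrl input 1 and siEIF3G input 2 included. Between siRNAs the values overlapped in both fractions. Of the 20 ratios of a subunit over a kinase, 14 were higher in polysomal than in input RNA without overlap in siEIF3G cells. In siCtrl cells 15 were, and none was lower under either siRNA. These ratios reuse the same genes and libraries, and the kinases correlated with each other at 0.94 to 0.99, so they are not 20 separate results. For all pairs of 10581 genes, 23% of ratios did not overlap in siEIF3G cells and 51.2% in siCtrl cells. None of the 6 ratios between kinases separated the fractions under either siRNA.

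The ratio of EIF2AK1 to EIF2B1 was picked after its values were seen. It was 0.674, 0.662 and 0.636 in siEIF3G polysomal libraries 1 to 3 and 1.06, 0.978 and 1.03 in siEIF3G input libraries. In siCtrl cells it was 0.714, 0.893 and 0.778 in polysomal libraries and 1.12, 1.34 and 1.40 in input libraries. The groups did not overlap in any of the 4 comparisons: the ratio was lower with siEIF3G than with siCtrl in both fractions, and lower in polysomal than in input RNA under both siRNAs. It was the only 1 of 36 pairs of members with this property, beside 0.877% of all pairs of genes. In the annotation EIF2B1 overlaps DDX55, and EIF2AK1 overlaps AIMP2 and ANKRD61. Whether counting used strand is not given in the sources used here, and reads in the overlaps cannot then be told apart. EIF2AK2 likewise overlaps GPATCH11. By siRNA, 3 of 36 ratios separated the groups in input RNA and 5 of 36 in polysomal RNA, beside 8.32% and 25.9% of all pairs of genes.

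**Figure D3:**
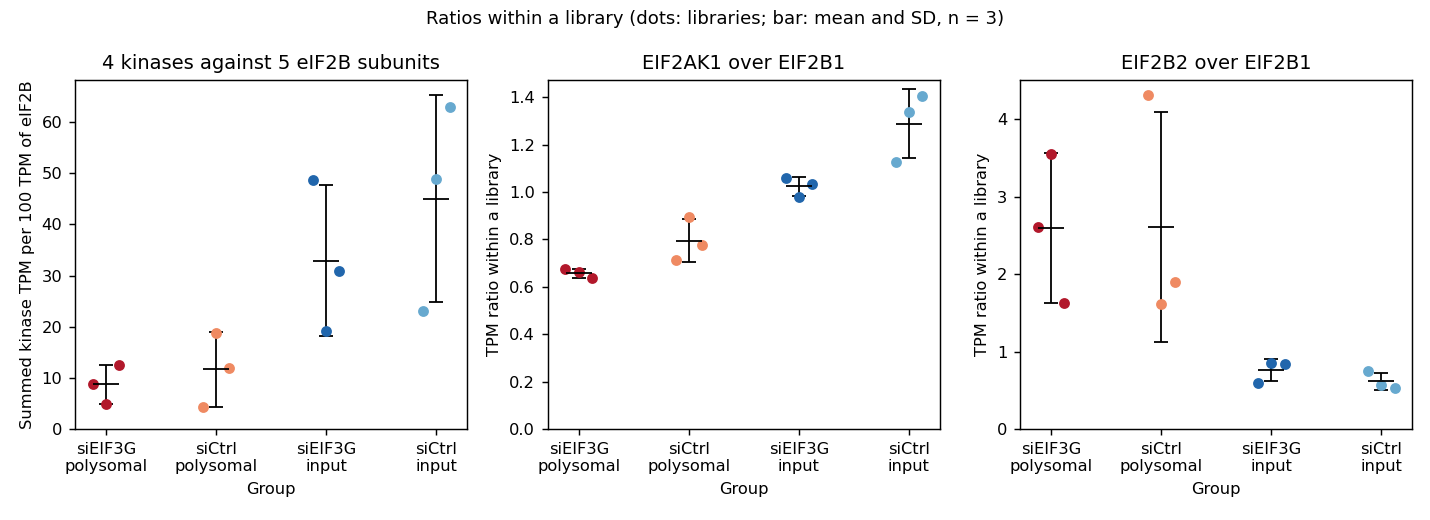
Ratios within each library for the summed kinases per 100 TPM of summed eIF2B subunits and for single pairs of members, with siEIF3G left of siCtrl. The kinase share lies between 4.34 and 18.9 in polysomal libraries and between 19.3 and 62.9 in input libraries.

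The members varied between libraries in different ways. Within the groups, 78.0% of the variance of all tested genes lay along 1 axis that set siCtrl input 1 and siEIF3G input 2 apart from the libraries at the other end. The correlation with this axis over 12 libraries was -0.95 to -0.99 for the kinases, -0.96 for EIF2B1, -0.88 for EIF2B3 and -0.77 for EIF2B2. EIF2B4 and EIF2B5 followed it least, at -0.27 and -0.31, while the median size over all genes was 0.874. Across the 12 libraries the kinases correlated with each other at 0.94 to 0.99 and with EIF2B1 at 0.95 to 0.96. EIF2B1 correlated with EIF2B4 at -0.16 and with EIF2B2 at 0.03, and EIF2B4 with EIF2B5 and EIF2B2 at 0.88 each. These values mix the difference between groups with the variation within them. For deviations from the group means, EIF2B1 correlated with EIF2B4 at 0.14 and with EIF2B2 at 0.69. EIF2B4 then correlated with EIF2B5 at 0.93 and with EIF2B2 at 0.77. All these points share the axis, those across the 12 libraries also the groups, and the values are descriptions. The genes most like the mean of the subunits were DRG1 and SUCLG1 (Pearson r = 0.98 each, n = 12 libraries), where the median over genes was 0.31. For EIF2AK1 they were DCAF16 and PABIR2 (both r = 0.99), for EIF2AK2 USP32 and MFN1 (both r = 1.00), for EIF2AK3 SRSF10 and STK17A (r = 1.00 and 0.99), and for EIF2AK4 RBMS1 and PPP4R3A (both r = 1.00), with medians over genes of 0.60 to 0.63.

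Other genes of the pathway were read from 4 lists, and none of their tested genes passed in either siRNA comparison. Relative to the median of all genes in polysomal RNA, the list medians were 0.65 for eIF2 and its GTPase cycle, 0.22 for the phosphatase list, 0.23 for kinase activators and inhibitors, and 0.38 for ATF4 and its targets. Without siEIF3G polysomal 3 they were 0.40, 0.12, 0.16 and 0.0502 in the same order. eIF2 and its GTPase cycle had 7 tested genes with a median log2 difference of 0.99 in polysomal and 0.15 in input RNA. EIF5, which activates the GTPase of eIF2, was at 51.7 ± 32.7 TPM in siEIF3G polysomal and 15.5 ± 6.46 TPM in siCtrl polysomal libraries (SD, n = 3 each), a log2 difference of 1.58 (SE 0.69; limma, adjusted p = 0.650). Without siEIF3G polysomal 3 this difference was 1.10. EIF2S1, the phosphorylated alpha subunit, differed by 0.94 in polysomal RNA and 0.18 in input RNA, and EIF2S3, the gamma subunit, by 1.13 and 0.15. BZW1 and BZW2, relatives of EIF5, differed by 1.02 and 0.99 in polysomal RNA. The phosphatase list had 6 tested genes with medians of 0.55 in polysomal and 0.04 in input RNA. PPP1CA, a catalytic subunit, had groups without overlap and a log2 difference of -0.76 in polysomal RNA (SE 0.27; limma, adjusted p = 0.650). PPP1CC, another catalytic subunit, and PPP1R15A, the stress-induced regulator, were higher there without overlap, by 0.98 (SE 0.58) and 0.40 (SE 0.37) on the log2 scale (limma, adjusted p = 0.650 and 0.669). So 3 of these 6 genes had polysomal groups without overlap, 2 higher and 1 lower, beside 29.2% of all genes. In input RNA PPP1R15A differed by 0.52.

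Activators and inhibitors of the kinases numbered 9, with medians of 0.57 in polysomal and 0.16 in input RNA. HSPA5, the chaperone that holds PERK inactive, was at 42.1 ± 30.8 TPM in siEIF3G polysomal and 7.85 ± 2.79 TPM in siCtrl polysomal libraries (SD, n = 3 each), a log2 difference of 2.12 (SE 0.70; limma, adjusted p = 0.650). Without siEIF3G polysomal 3 this difference was 1.57. ADAR, which edits double-stranded RNA, differed by 1.11 in polysomal RNA, IMPACT, an inhibitor of GCN2, by 0.76, and PRKRA, an activator of PKR, by 0.69. In input RNA the values for PRKRA, DELE1, which activates HRI, and TARBP2, an inhibitor of PKR, were 0.37, 0.35 and -0.34. ATF4 and its targets had 15 of 18 genes tested, with medians of 0.71 in polysomal and 0.54 in input RNA. Positive differences were found for 13 of the 15 in each fraction, beside 72.7% of all genes in polysomal RNA and 43.0% in input RNA.

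Library 3 of the siEIF3G cells stood high for the ATF4 list in both fractions. It was the highest of the 3 siEIF3G libraries for 14 of the 15 genes in polysomal RNA and for 14 of the 15 in input RNA, beside 60.8% and 48.1% of all genes. In polysomal RNA it was also the highest for 7 of 7 genes of eIF2 and its GTPase cycle, 5 of 6 of the phosphatase list and 6 of 9 activators and inhibitors. In input RNA those counts were 5 of 7, 4 of 6 and 5 of 9. Without library 3, a choice made after the values were seen, the median of the ATF4 list was 0.25 in polysomal RNA, beside 0.20 over all genes, and less than 0.01 in input RNA, beside -0.18 over all genes. Positive differences were then found for 13 of the 15 in polysomal RNA, beside 72.7% of all genes, and for 8 of the 15 in input RNA, beside 24.9%.

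DDIT3, the transcription factor CHOP, was at 29.5, 35.2 and 117 TPM in siEIF3G polysomal libraries 1 to 3, against 14.6, 14.6 and 15.9 TPM in siCtrl polysomal libraries 1 to 3. All 3 siEIF3G polysomal libraries lay above the siCtrl ones, as for 5 of the 15 genes of this list and 21.6% of all genes. The same held for 4 of 7 genes of eIF2 and its GTPase cycle and 5 of 9 activators and inhibitors. The log2 difference of DDIT3 was 1.66 (SE 0.64; limma, adjusted p = 0.650), or 1.05 without library 3. In input RNA it was 1.45 (SE 0.64; limma, adjusted p = 1.00), or 0.70 without it. ASNS, asparagine synthetase, was at 30.5, 34.7 and 326 TPM in siEIF3G polysomal libraries, against 31.0, 16.2 and 7.68 TPM in siCtrl polysomal libraries. The groups overlapped, and the log2 difference of 2.09 (limma, adjusted p = 0.650) was 0.99 without library 3. AARS1, alanyl-tRNA synthetase, differed by 2.18 in polysomal RNA (limma, adjusted p = 0.650), or 1.85 without it. TRIB3, a stress-induced pseudokinase, was at 38.5, 61.8 and 353 TPM in siEIF3G input libraries, against 57.1, 50.6 and 39.9 TPM in siCtrl input libraries. Its groups overlapped, and its log2 difference of 0.95 (limma, adjusted p = 1.00) was 0.0041 without library 3. SESN2, a stress-induced regulator of growth signalling, was at 14.01, 17.7 and 86.2 TPM in siEIF3G input libraries, against 9.88, 12.5 and 11.7 TPM in siCtrl input libraries. Its groups did not overlap, as for 1 of the 15 genes of this list and 1.88% of all genes as higher in input RNA. Its log2 difference of 1.24 (limma, adjusted p = 1.00) was 0.44 without library 3. The 2 genes of the list with negative differences were CHAC1 and ATF5. CHAC1 differed by -0.83 in polysomal and -0.34 in input RNA (SE 0.80 each), or -1.76 and -1.34 without library 3. ATF5 differed by -0.07 and -0.17, or 0.25 and -0.11 without library 3.

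**Figure D4:**
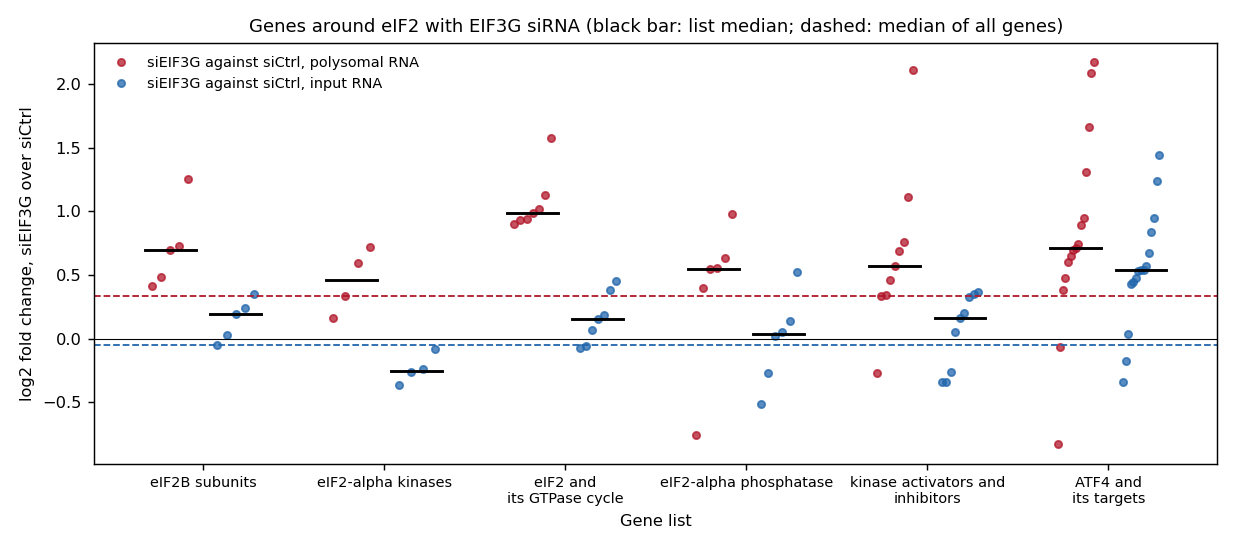
log2 differences of siEIF3G over siCtrl for the members and the 4 pathway lists in polysomal and input RNA, 1 point a gene, with the median of all genes marked. The points of ATF4 and its targets have medians of 0.71 in polysomal and 0.54 in input RNA, and no gene shown passed the test.

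In siCtrl cells, where 36.9% of all genes passed between polysomal and input RNA, 10 genes of these 4 lists passed. PPP1CA was 1.44 higher on the log2 scale (limma, adjusted p = 0.00992), and DDIT4, an inhibitor of mTORC1, was 1.07 higher (limma, adjusted p = 0.0436). The other 8 were lower, with log2 differences of -1.49 for PPP1CB, -1.68 for PPP1CC, -2.85 for HSPA5, -2.19 for ADAR, -1.87 for IMPACT, -1.39 for PRKRA, -2.09 for EIF2S3 and -1.31 for ATF4 (limma, adjusted p from 0.0249 to 0.0451). None of the tested genes of these lists passed in siEIF3G cells.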

How the data were processed

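RNA was sequenced from 12 libraries of H1299 cells, 3 for each combination of siRNA and fraction. The authors deposited TPM per gene and library. RSEM 1.3.1 and the genome build GRCh38.p13 are named per the submitters' processing notes, whereas aligner, annotation and filters were not given in the sources used here. Depth is unknown, because TPM carry no read totals, so counting error cannot be stated. Values were used as log2(TPM + 1), which understates the fold change of low genes. A gene needed a mean of 1 TPM or more to be tested. Differences between the 4 groups came from limma 3.58.1 (R 4.3.3, trend option, 8 residual degrees of freedom), with Benjamini-Hochberg adjustment over 10605 genes and a threshold of 0.05. The procedure was tested on simulated data with independent noise for each gene and library. That simulation held no axis shared by genes, so it does not show how the procedure performs on these libraries. Ratios between genes were taken within each library. Alternatives were pseudocounts of 0.1 and 5, no filter or a minimum of 5 TPM, size factors and quantile normalization, fits on the compared groups alone, a replicate block, and leaving out libraries. Named besides the members are, per list, genes past the threshold and the 3 largest siRNA differences per fraction at 5 TPM or more. CHAC1 and ATF5 are named for their negative siRNA differences. For likeness they are the 2 genes with the highest correlation. Members and lists were chosen with earlier results of these data known. Markers not in the table were not analysed here, and 1 further marker is not reported here.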

Additional observations from a re-analysis of the deposited data

How the results depend on the processing

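Reads per value are unknown, and 3 libraries a group limit what could be called. Leaving out 1 library at a time moved the input difference between siEIF3G and siCtrl across 0, from -0.63 to 0.34 for EIF2B1, -0.19 to 0.54 for EIF2B2, -0.40 to 0.68 for EIF2B3, -0.18 to 0.18 for EIF2B5, -1.04 to 0.0942 for EIF2AK1, -1.02 to 0.34 for EIF2AK2, -0.76 to 0.18 for EIF2AK3 and -0.97 to 0.52 for EIF2AK4. It did the same for EIF2AK1 in polysomal RNA (-0.11 to 0.42), for the difference between the siRNA effects of EIF2B2 (-0.0494 to 0.68) and EIF2B4 (-0.0576 to 0.93), and for EIF2B5 between fractions in siCtrl cells (-0.67 to 0.31). The polysomal differences of the other members stayed positive but moved, from 0.12 to 0.67 for EIF2B1, 0.21 to 0.83 for EIF2B2, 0.85 to 1.72 for EIF2B3, 0.30 to 1.28 for EIF2B4, 0.39 to 1.36 for EIF2B5, 0.28 to 0.84 for EIF2AK2, 0.13 to 0.45 for EIF2AK3 and 0.44 to 1.02 for EIF2AK4. Without siEIF3G input 3, a choice made after seeing the data, EIF2S1 in input RNA was at -0.13. With size factors the polysomal siRNA difference was -0.10 for EIF2B1, -0.0420 for EIF2B2 and -0.35 for EIF2AK1, and the difference between effects was -0.0545, -0.28 and -0.19 for EIF2B1, EIF2B2 and EIF2B4. Polysomal against input RNA with size factors gave 0.0373 for EIF2B1 in siEIF3G cells, and 0.0918, 0.63 and 1.03 for EIF2B1, EIF2B3 and EIF2B5 in siCtrl cells. Quantile normalization gave -0.22 for EIF2AK1 in the polysomal siRNA comparison and -0.0452 for EIF2B2 in the difference between effects. Between fractions it gave 0.0949 for EIF2AK3 in siEIF3G cells, and 0.18, 0.37 and 0.0123 for EIF2B3, EIF2B5 and EIF2AK3 in siCtrl cells. Without the 3 libraries that resembled the other fraction, the values were -0.16 for EIF2B5 in input and -0.11 for EIF2AK1 in polysomal RNA between siRNAs, and -0.0724 for EIF2B3 between fractions in siEIF3G cells. Both scalings bring the median gene near 0, where it was -0.96 between fractions in siCtrl cells.

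Between siRNAs, where 2 genes passed in each fraction, 1 passed in input with only the groups compared and 5 without the 3 libraries. In polysomal RNA 1 passed with size factors, quantile normalization or only the groups compared, and 4 without the 3. Leaving out 1 library gave 1 to 2 genes in each. Between fractions in siEIF3G cells 1 member passed with size factors and 1 with quantile normalization, EIF2B2 in both, and 7 passed without the 3. All genes called there numbered 333, against 50 with size factors, 68 with only the groups compared and 7541 without the 3, and 44 to 788 with 1 library left out. In siCtrl cells 2 members passed, against 0 with a pseudocount of 5, no filter or only the groups compared, 1 with a minimum of 5 TPM and 6 without the 3, and 0 to 5 with 1 library left out, 5 without siCtrl input 1. All genes called there numbered 3912, against 1408 with a pseudocount of 5, 1249 with no filter, 610 with only the groups compared and 7960 without the 3, and 130 to 7185 with 1 library left out. Of the 3912, 846 were higher, and with size factors 2703 of 4661 were higher. Where the construction does not show it, the cause was not tested. Of 18 same-numbered pairs of libraries, 6 had deviations from the group means correlated over 0.1, and r ran from -0.69 to 0.71. These deviations share the axis described above, so this count cannot decide whether the replicate numbers pair the libraries. With the replicate block 0 members and 2121 genes passed between fractions in siCtrl cells.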
